A study of Rattus norvegicus with 15 samples.

Results

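Endothelin and vasoactive signalling genes were examined in cultured rat cells labelled brain microvascular endothelial cells (BMECs) after x-ray exposure. The 8 genes proposed for this set were chosen by name: endothelin 1 (Edn1), its converting enzyme (Ece1) and its receptors (Ednra and Ednrb), the prostaglandin synthases Ptgs1, Ptgs2 and Ptgis, and adrenomedullin (Adm). Rows were found for 7 of the 8 genes, out of 37367 genes in the expression table, and Ptgis was not analysed here. The value of a gene is its FPKM (fragments per kilobase of exon model, scaled to the mapped fragments of the library), summed over its annotated transcripts and over the assembled transcripts that carry no gene name but lie in its locus alone.

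The cells were primary cultures from the cerebral cortex of Sprague-Dawley littermates aged 2 to 3 weeks, grown in endothelial cell medium and depleted of other cells by differential adhesion. The 15 libraries form 5 groups of 3: unexposed control cells (0 Gy) cultured for 12 h, and cells collected 12 h or 24 h after a dose of 5 Gy or 20 Gy. The methods name fewer rats than there are libraries and do not say how animals were divided among the cultures, so the p-values measure the spread between these libraries. All controls were collected at 12 h, so at 24 h the time after exposure and the time in culture cannot be told apart. The 4 comparisons with the control group share the same 3 control libraries.

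Endothelin 1 is made as a long precursor, trimmed to big endothelin and then cut by endothelin converting enzyme into the active peptide, a strong constrictor of vessels. It acts on receptor A, which contracts smooth muscle and pericytes, and on receptor B, which in endothelium triggers release of the dilators nitric oxide and prostacyclin and clears the peptide. Prostaglandin synthases 1 and 2 (COX-1 and COX-2) turn arachidonic acid into prostaglandin H2, the precursor of dilating and constricting prostanoids, and adrenomedullin is a dilator peptide that strengthens the endothelial barrier.

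The cell label was checked first. Of 10 endothelial markers 8 had rows, and their summed level was only 2.44 to 6.55 FPKM in the 15 libraries. Tie1 was at 0 in all 15 libraries, and the highest values of the junction genes Cldn5 and Cdh5 and of Vwf were 0.0328, 0.275 and 0.11 FPKM, while Flt1 carried most of the sum (1.16 to 5.48 FPKM). The 6 fibroblast markers summed to 1800 to 1990 FPKM in the control group, 1440 to 1550 FPKM at 12 h after 5 Gy, 1270 to 1380 FPKM at 12 h after 20 Gy, and 284 to 314 and 272 to 326 FPKM at 24 h after 5 Gy and 20 Gy. Most of the fall at 24 h lay in Col1a1, Col1a2 and Col3a1, from means of 516, 414 and 535 FPKM in the control group. After 5 Gy they were at 27.0, 22.4 and 26.9 FPKM, and after 20 Gy at 31.4, 30.7 and 36.6 FPKM. Dcn and Lum were also called lower at 24 h at both doses. Pdgfra was not called in any exposed group, at 52.1 FPKM in the control group and 60.8 and 51.6 FPKM at 24 h. The 8 pericyte markers summed to 152 to 160 FPKM in the control group and, at 12 h, to 103 to 125 FPKM (5 Gy) and 112 to 126 FPKM (20 Gy). At 24 h they summed to 73.9 to 87.7 FPKM (5 Gy) and 49.9 to 76.5 FPKM (20 Gy). These sums were carried by Pdgfrb, Anpep and Cspg4, with the defining genes Kcnj8 and Abcc9 at 0. The data thus go against the label for its defining genes, and the cells are called by their label only. Libraries held 5.44 to 7.49 gigabases of aligned sequence, which puts at least 89 read equivalents of 150 bases behind every value of the 6 genes tested. In such bulk RNA, fewer cells of a type and less RNA per cell cannot be told apart.

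Among the 6 genes of the set that passed a filter of a mean of 0.5 FPKM, Edn1 rose in all 4 exposed groups, Ptgs2 rose and Adm fell in both 24 h groups, and Ece1, Ednra and Ptgs1 did not pass the test in any comparison of the exposed groups with the control group. A gene was called when its adjusted p was under 0.05 (limma on log2(FPKM + 1), Benjamini-Hochberg over the 17895 genes tested) and its fold change was at least 1.5. One gene of the set was called at 12 h after 5 Gy, where 9.94% of all genes were called, and 1 at 12 h after 20 Gy, where 8.54% were. At 24 h 3 of the 6 were called at each dose, beside 41.3% of all genes after 5 Gy and 40.3% after 20 Gy, so the share called at 24 h lay close to that of the whole table. The median log2 fold change of the 6 genes was -0.17 and -0.04 at 12 h (5 Gy and 20 Gy) and 0.08 and -0.10 at 24 h, and that of all genes was 0.03, 0.01, -0.05 and -0.14.

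**Figure D1:**
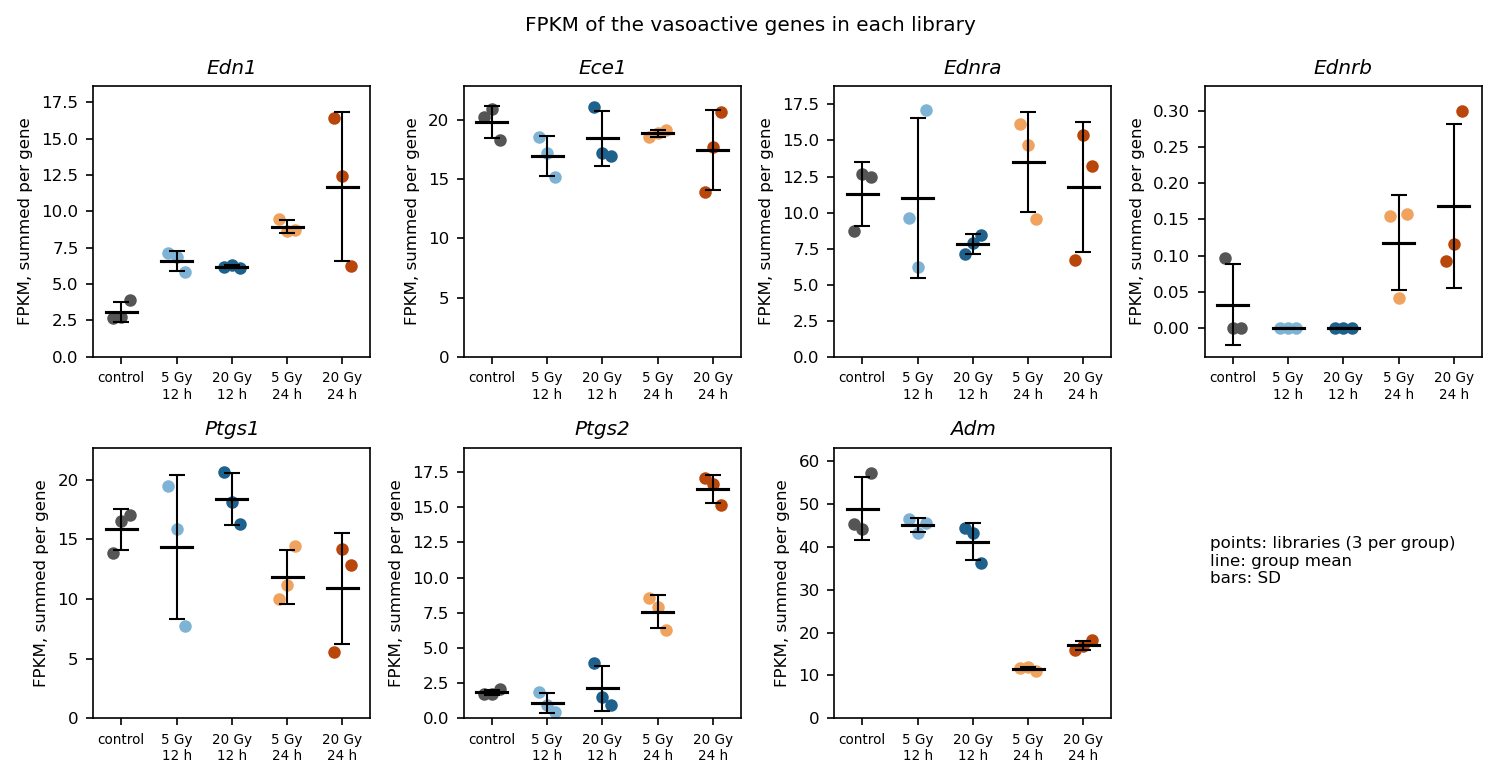
FPKM of the 7 measured genes (vertical axes, each from its own scale) in the 5 groups (horizontal axes). Points are the 3 libraries of a group, the line is the group mean and the bars are SD. Edn1 lies lowest in the control group, Ptgs2 and Adm separate the 24 h libraries from the 12 h and control libraries, and Ednrb stays under 0.5 FPKM in all 15 libraries.

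The sequences before the starts of the 3 genes called at 24 h are given because these genes carry the differences described below. They come from RefSeq on GRCr8, 5′ to 3′ on the strand of the gene, and end 1 base before the listed start for Ptgs2 and Adm. The stretch for Edn1 ends 104 bases before the listed start, at a run with the letters of a TATA box, so that only the outer 147 bases are shown. Capitals mark matches to motifs searched on both strands in the 250 bases before the start.
Edn1, chr17:22666791-22666937, minus strand: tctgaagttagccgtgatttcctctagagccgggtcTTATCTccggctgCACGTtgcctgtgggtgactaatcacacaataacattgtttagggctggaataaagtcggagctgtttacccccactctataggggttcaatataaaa
Ptgs2, chr13:64713813-64714062, plus strand: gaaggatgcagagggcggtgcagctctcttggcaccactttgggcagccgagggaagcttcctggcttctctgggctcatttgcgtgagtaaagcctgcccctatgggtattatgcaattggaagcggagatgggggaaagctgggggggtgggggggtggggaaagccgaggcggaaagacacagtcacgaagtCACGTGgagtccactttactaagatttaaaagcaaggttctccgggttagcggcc
Adm, chr1:174179950-174180199, plus strand: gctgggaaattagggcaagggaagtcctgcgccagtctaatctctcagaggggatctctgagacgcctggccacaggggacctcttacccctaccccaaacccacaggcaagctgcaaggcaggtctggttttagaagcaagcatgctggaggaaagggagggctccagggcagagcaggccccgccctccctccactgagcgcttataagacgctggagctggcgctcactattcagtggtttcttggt
The motifs were the AP-1 site TGANTCA, the cyclic AMP response element TGACGTCA, the hypoxia response core ACGTG, the GATA core AGATAA and the E-box CACGTG, which 6.34%, 1.59%, 16.6%, 10.3% and 5.59% of 33469 rat promoter windows of 250 bases held. In Edn1 the GATA core stands 214 to 209 bases and the hypoxia core 201 to 197 bases before the start, both on the opposite strand. The Ptgs2 window holds the E-box 55 to 50 bases before the start, and the hypoxia core overlaps it on both strands. None of the 5 motifs is in the Adm, Ece1, Ednra, Ednrb or Ptgs1 windows, which says only that these letters are not there, and a match is a description of letters, not of binding.

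Edn1, the constrictor ligand, lies at chr17:22137324-22143324 (Rnor_6.0, minus strand) and was quantified over 1 annotated and 2 unnamed assembled transcripts. It measured 2.69, 2.72 and 3.88 FPKM in the control libraries, 7.13, 6.88 and 5.83 FPKM at 12 h after 5 Gy, and 6.15, 6.33 and 6.14 FPKM at 12 h after 20 Gy. At 24 h it measured 9.47, 8.63 and 8.75 FPKM after 5 Gy and 16.4, 12.4 and 6.25 FPKM after 20 Gy. No control library reached the lowest exposed one, and the 20 Gy, 24 h group was the most spread out, with replicate 3 among the 12 h values.

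At 12 h the mean of Edn1 was 6.61 ± 0.688 FPKM (SD, n = 3) after 5 Gy and 6.21 ± 0.105 FPKM after 20 Gy against 3.10 ± 0.680 FPKM in the control group, which is 2.14 and 2.00 times the control mean. On the log2(FPKM + 1) scale the changes were 0.90 (SE 0.24, limma adjusted p = 0.0188) and 0.83 (SE 0.24, limma adjusted p = 0.032). For comparison, 21.6% and 19.8% of all genes had every library of these groups above every control library. Both 12 h calls are narrow: the 5 Gy call was lost without control replicate 1 (adjusted p = 0.0593) or 2 (0.0667) or without 5 Gy, 12 h replicate 1 (0.0565) or 2 (0.0561), and the 20 Gy call without control replicate 1 (0.0904) or 2 (0.101) or without any of the 20 Gy, 12 h replicates (0.0708, 0.0815 and 0.08). The annotated transcript alone gave 0.80 (adjusted p = 0.176) and 0.77 (adjusted p = 0.209).

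At 24 h Edn1 reached 8.95 ± 0.452 FPKM after 5 Gy and 11.7 ± 5.13 FPKM after 20 Gy, 2.89 and 3.78 times the control mean. The log2 changes were 1.29 (SE 0.24, limma adjusted p = 0.000447) and 1.56 (SE 0.24, limma adjusted p = 0.000108). Every library of these groups lay above every control library, as did those of 32.3% (5 Gy) and 26.0% (20 Gy) of all genes. The call at 24 h after 20 Gy held without any single library, with changes from 1.28 to 1.91. In the order of group means the 12 h groups overlapped each other, as did the 24 h groups, and the other neighbours did not overlap. In 20 Gy, 24 h replicate 3 the annotated transcript carried 51.8% of the Edn1 signal, against 71.3% to 86.2% in the other 14 libraries. The sum of 5 astrocyte markers was higher in the exposed groups as Edn1 was, at 10.7 to 13.2 FPKM in the control group, 20.9 to 30.1 FPKM at 12 h and 19.0 to 32.6 FPKM at 24 h. Aldh1l1 carried most of it and was called in all 4 groups, while Aqp4 was at 0 and Gfap at or under 0.182 FPKM in all 15 libraries. Slc1a3 and S100b were not called in any exposed group. The mean of Slc1a3 was 1.79 FPKM in the control group and 0.918 to 2.36 FPKM in the exposed groups. That of S100b was lower in every exposed group, at 0.341 to 0.808 FPKM against 0.881 FPKM in the control group. The fibroblast and pericyte sums were lower than in the control group in all 4 exposed groups. The part of the astrocyte, fibroblast and pericyte sums in the Edn1 result was not tested.

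Ece1, the enzyme that releases active endothelin, lies at chr5:156215417-156318671 (plus strand) and was quantified over 2 annotated and 9 unnamed transcripts. Its 15 libraries ran from 13.9 to 21.1 FPKM, with group means of 19.8 ± 1.36 (control), 17.0 ± 1.70 (5 Gy, 12 h), 18.4 ± 2.33 (20 Gy, 12 h), 18.9 ± 0.301 (5 Gy, 24 h) and 17.4 ± 3.38 FPKM (20 Gy, 24 h). In the order of means every neighbouring pair of groups overlapped. The log2 differences from the control group lay between -0.22 and -0.07, and all 95% intervals lay between -0.49 and 0.21, within a fold change of 1.5 in either direction. Ece1 thus had the tightest intervals of the uncalled genes. Its main annotated transcript did differ at 24 h after 20 Gy, by -1.63 on the log2 scale (limma on transcripts, adjusted p = 0.0254), while the sum over all transcripts differed by -0.19 (adjusted p = 0.217). The annotated transcripts carried 23.6%, 31.5% and 18.1% of the Ece1 signal in that group, but also only 36.1%, 37.6% and 20.0% in 1 library each of the control, 5 Gy, 12 h and 20 Gy, 12 h groups.

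Within a library, the level of Edn1 relative to Ece1 was 0.13 to 0.212 in the control group and 0.457 to 0.51 at 24 h after 5 Gy. After 20 Gy at 24 h it was 1.18, 0.704 and 0.302, so that ligand exceeded converting enzyme per length of transcript in only 1 library.

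Ednra, the constrictor receptor, lies at chr19:33928356-33991703 (plus strand). Only its 6 annotated transcripts were summed, because the unnamed transcripts of the locus are assigned jointly to Ednra and its neighbour Tmem184c. It measured 8.75, 12.7 and 12.5 FPKM in the control group, 9.63, 6.25 and 17.1 FPKM at 12 h after 5 Gy, and 7.10, 7.90 and 8.47 FPKM at 12 h after 20 Gy. At 24 h it measured 16.2, 14.7 and 9.59 FPKM after 5 Gy and 6.71, 15.4 and 13.3 FPKM after 20 Gy. The 5 Gy, 12 h libraries alone spanned 6.25 to 17.1 FPKM, and of the 4 exposed groups the 20 Gy, 12 h group alone did not overlap the control group, lying just below it, as 17.0% of all genes did. None of the 4 changes passed, with log2 values of -0.12, -0.46, 0.22 and 0.00 (SE 0.33 each, limma adjusted p from 0.388 to 0.998). The intervals were wide, and each of the 4 included a change of more than 1.5-fold in at least 1 direction, those at 12 h after 5 Gy (-0.84 to 0.60) and at 24 h after 20 Gy (-0.72 to 0.72) in both.

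Ednrb, the dilating and clearing receptor, lies at chr15:88006977-88036354 (minus strand) and was the 1 measured gene below 0.5 FPKM in all 15 libraries. It was listed at 0 in 8 libraries, including all 6 libraries collected at 12 h after exposure, where 3 reads would give 0.0332 to 0.0351 FPKM. The control libraries held 0.0966, 0 and 0 FPKM, the 5 Gy, 24 h libraries 0.154, 0.0424 and 0.158 FPKM, and the 20 Gy, 24 h libraries 0.0923, 0.116 and 0.299 FPKM. The largest of these is worth about 26 reads of 150 bases. All 6 libraries collected at 24 h were above 0, but 1 control library lay among them, and Ednrb was left out of the fit because it did not pass the filter, so that no difference between groups is reported for it.

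Of the 4 other genes listed for this pathway, Edn2 and Edn3, the related ligands, were at 0 in all 15 libraries. The remaining genes, both tested, are peptidases. Ece2, a second converting enzyme, fell from 2.92 ± 0.402 FPKM in the control group to 1.26 ± 0.125 FPKM at 24 h after 5 Gy (log2 change -0.79, limma adjusted p = 5.58e-05) and 0.995 ± 0.0728 FPKM after 20 Gy (-0.97, limma adjusted p = 1.08e-05). Mme, neprilysin, which degrades endothelin and other peptides, was called lower only at 24 h after 20 Gy, at 3.90 ± 2.04 FPKM against 11.4 ± 0.984 FPKM (log2 change -1.43, limma adjusted p = 0.00371), and its 5 Gy, 24 h value was 6.13 ± 1.49 FPKM (adjusted p = 0.0617). Neither was called at 12 h. Of all genes, 9.94% and 8.54% were called at 12 h and 41.3% and 40.3% at 24 h (5 Gy and 20 Gy). The median log2 change, here of only 2 genes, was -0.42 and -0.36 at 12 h and -0.81 and -1.20 at 24 h.

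**Figure D2:**
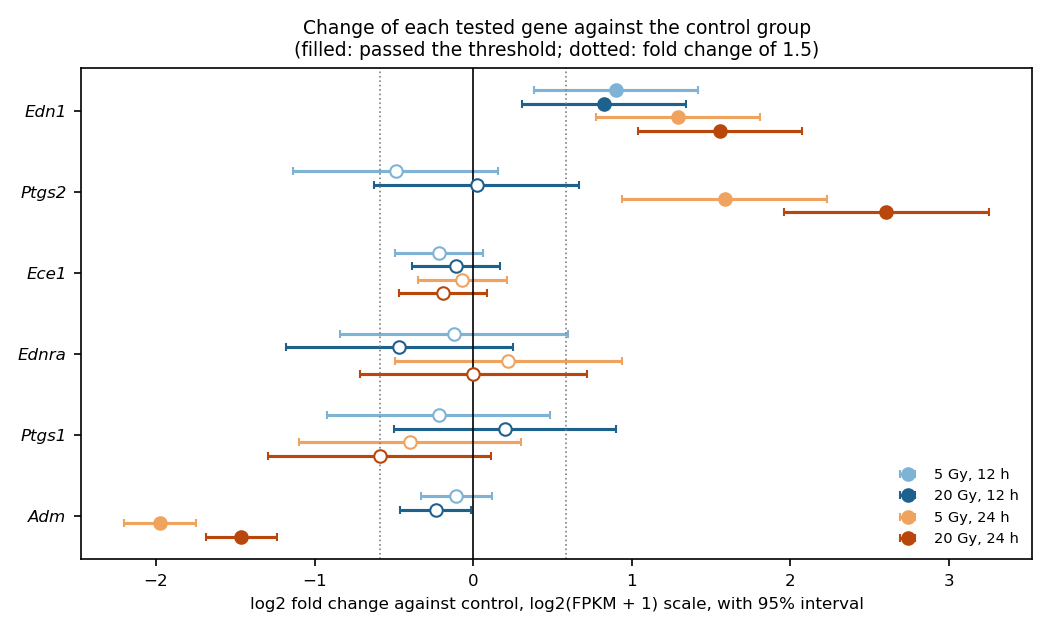
Log2 fold change against the control group, on the log2(FPKM + 1) scale (horizontal axis), for the 6 tested genes (vertical axis), with 95% intervals; colours mark the 4 exposed groups, filled points passed the threshold and dotted lines mark a fold change of 1.5. Edn1 lies above the dotted line in all 4 groups, Ptgs2 and Adm leave the lines in opposite directions at 24 h, and the Ece1 intervals stay within the lines.

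Ptgs2, the inducible prostaglandin synthase, lies at chr13:67351087-67359335 (plus strand) with 1 annotated transcript. It measured 1.76, 1.70 and 2.06 FPKM in the control libraries, 1.86, 0.977 and 0.46 FPKM at 12 h after 5 Gy, and 3.96, 1.53 and 0.912 FPKM at 12 h after 20 Gy. At 24 h it measured 8.56, 7.88 and 6.28 FPKM after 5 Gy and 17.1, 16.7 and 15.2 FPKM after 20 Gy. Every 24 h library was above every control and 12 h library, and every 20 Gy, 24 h library was above every 5 Gy, 24 h library, while the 12 h groups overlapped the control group with 1 library below 0.5 FPKM. Of all genes, 28.7% had every 5 Gy, 24 h library above every 5 Gy, 12 h library. For 6.78% every 20 Gy, 24 h library was above every 5 Gy, 24 h library.

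The mean of Ptgs2 rose from 1.84 ± 0.195 FPKM in the control group to 7.57 ± 1.17 FPKM at 24 h after 5 Gy, 4.11 times as high (log2 change 1.59, SE 0.30, limma adjusted p = 0.000516). After 20 Gy it rose to 16.3 ± 1.01 FPKM, 8.85 times as high (log2 change 2.61, SE 0.30, limma adjusted p = 9.05e-06). Of all genes, 32.3% and 26.0% had every library of these groups above the control libraries. The fibroblast and pericyte marker sums were lower in the same 24 h libraries, and their part in the Ptgs2 result was not tested. At 12 h the log2 differences of Ptgs2 were -0.49 (95% interval -1.13 to 0.16, adjusted p = 0.29) after 5 Gy and 0.02 (-0.62 to 0.67, adjusted p = 0.972) after 20 Gy, and the spread was wide, with means of 1.10 ± 0.708 and 2.13 ± 1.61 FPKM.

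Ptgs1, the constitutive prostaglandin synthase, lies at chr3:15560712-15582344 (plus strand) and was quantified over 1 annotated and 3 unnamed transcripts. It measured 13.9, 16.6 and 17.1 FPKM in the control group, 19.5, 15.9 and 7.71 FPKM at 12 h after 5 Gy, and 20.7, 18.2 and 16.3 FPKM at 12 h after 20 Gy. At 24 h it measured 10.0, 11.1 and 14.4 FPKM after 5 Gy and 5.60, 14.2 and 12.9 FPKM after 20 Gy. The 24 h libraries ran from 5.60 to 14.4 FPKM, and both 24 h groups overlapped the control group through their highest libraries. The log2 differences from the control group were -0.22, 0.20, -0.40 and -0.59 (5 Gy and 20 Gy at 12 h, then at 24 h, SE 0.32 each), and none passed (limma adjusted p from 0.137 to 0.739). The 95% interval at 24 h after 20 Gy ran from -1.29 to 0.11.

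How the Ptgs1 signal was divided between transcripts differed widely between libraries of the same group. The annotated transcript carried 79.4%, 11.9% and 1.58% in the 3 control libraries, 88.5% to 90.0% at 12 h after 5 Gy, and 53.6%, 0.0634% and 2.41% at 24 h after 20 Gy. A fold change taken from the annotated transcript alone would therefore follow the assignment between transcripts, and the sums are used here.

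**Figure D3:**
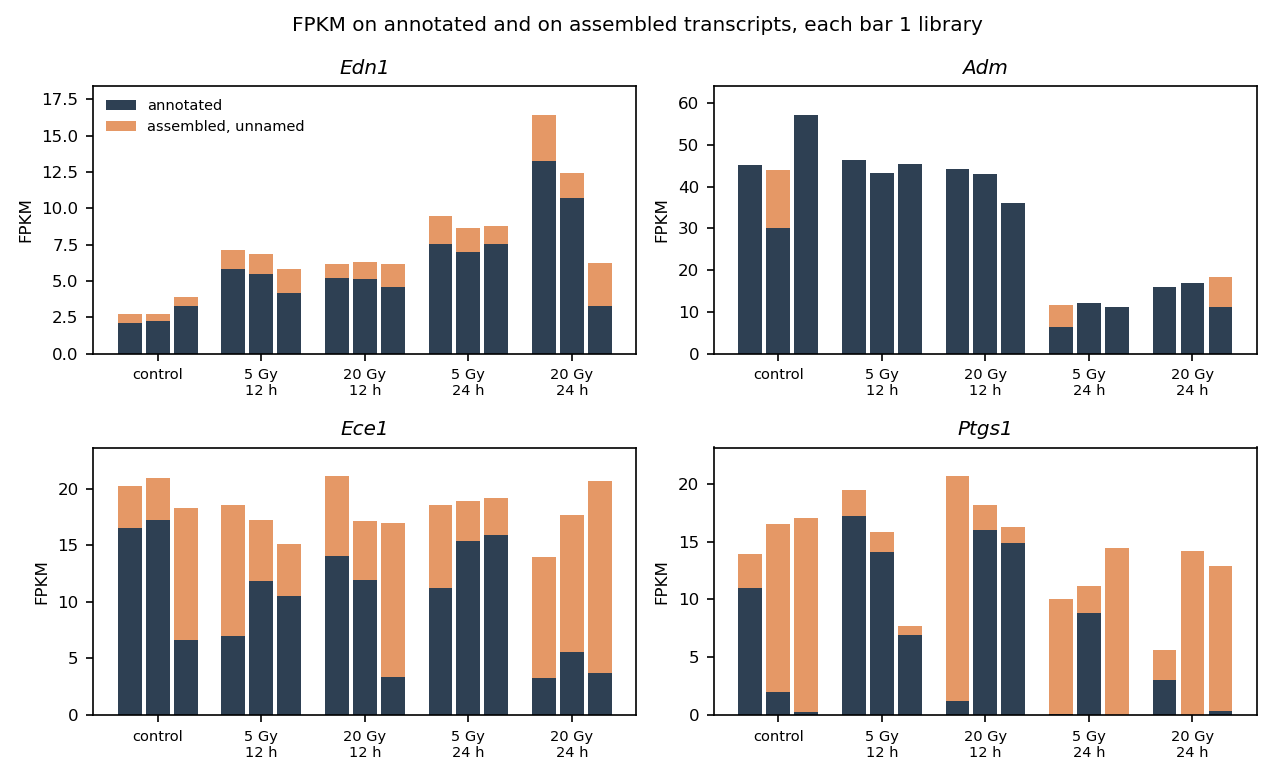
FPKM (vertical axes, from 0) on annotated transcripts (dark) and on assembled transcripts without a gene name (orange) for Edn1, Adm, Ece1 and Ptgs1, with 1 bar for each library in the 5 groups. The dark share changes from library to library within a group for Ptgs1 and Ece1, while Edn1 stays mostly dark except in 20 Gy, 24 h replicate 3 (51.8%).

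Per length of transcript, Ptgs2 stood at 0.103 to 0.127 of Ptgs1 in the control libraries and 0.056 to 0.191 in the 12 h libraries. The ratio was 0.436 to 0.852 at 24 h after 5 Gy and 1.17, 1.18 and 3.05 at 24 h after 20 Gy. Only in the 20 Gy, 24 h libraries was the inducible synthase above the constitutive one, and the highest ratio belongs to the library with the lowest Ptgs1 value. These ratios repeat the levels of both genes and were not tested.

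Of 17 other genes listed for prostanoid synthesis, transport and reception, all had rows and 12 were tested. None was called at 12 h at either dose, 3 were higher and 1 lower at 24 h after 5 Gy, and 3 were higher and 3 lower at 24 h after 20 Gy, with median log2 changes of -0.03, -0.12, 0.19 and 0.25. The 24 h counts stand beside the 41.3% and 40.3% of all genes called in the same comparisons. Ptges2, a prostaglandin E synthase, rose from 5.95 ± 0.385 FPKM to 14.2 ± 1.91 FPKM (5 Gy, 24 h, limma adjusted p = 0.000612) and 13.2 ± 3.93 FPKM (20 Gy, 24 h, limma adjusted p = 0.00151). Abcc4, which exports prostaglandin E2 from cells, rose from 2.87 ± 0.680 FPKM to 8.77 ± 1.89 FPKM (limma adjusted p = 0.000372) and 5.71 ± 1.77 FPKM (limma adjusted p = 0.0143). The receptor of the constrictor thromboxane, Tbxa2r, fell from 2.69 ± 0.301 FPKM to 0.843 ± 0.0683 FPKM (limma adjusted p = 3.63e-05) and 0.611 ± 0.293 FPKM (limma adjusted p = 7.76e-06). The other calls were at 1 dose only. The receptor gene Ptgfr was called higher after 5 Gy (0.90, limma adjusted p = 6.41e-06). After 20 Gy its change of 0.46 (limma adjusted p = 0.00151) lay under the fold limit on the log2(FPKM + 1) scale. Its means there were 1.58 FPKM against 0.877 FPKM in the control group. After 20 Gy the receptor gene Ptger4 was called higher and the phospholipase gene Pla2g4a and the receptor gene Ptger1 lower. The synthases Ptges and Ptges3 were not called against the control group at either dose. Ptges3 was higher at 24 h under the fold limit (0.42, limma adjusted p = 0.00196, and 0.52, limma adjusted p = 0.000383). Ptges was so after 5 Gy only (0.35, limma adjusted p = 0.0137). From 12 h to 24 h Ptges3 was called higher at both doses and Ptges at 20 Gy. The prostacyclin receptor Ptgir stayed at or under 0.206 FPKM in all 15 libraries and was not tested.

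Adm lies at chr1:175445088-175447259 (plus strand) and was the most abundant gene of the set in the control group, over 1 annotated and 3 unnamed transcripts. It measured 45.3, 44.1 and 57.3 FPKM in the control libraries, 46.5, 43.3 and 45.5 FPKM at 12 h after 5 Gy, and 44.3, 43.2 and 36.2 FPKM at 12 h after 20 Gy. At 24 h it measured 11.7, 12.0 and 11.1 FPKM after 5 Gy and 16.0, 16.8 and 18.2 FPKM after 20 Gy. All 24 h libraries were far below all control and 12 h libraries, and the 5 Gy, 24 h libraries were below the 20 Gy, 24 h libraries. Of all genes, 6.78% had every 20 Gy, 24 h library above every 5 Gy, 24 h library. For 35.9% every 20 Gy, 24 h library was below every 20 Gy, 12 h library.

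From 48.9 ± 7.30 FPKM in the control group, Adm fell to 11.6 ± 0.439 FPKM at 24 h after 5 Gy, 4.21-fold lower (log2 change -1.97, SE 0.10, limma adjusted p = 1.34e-08). After 20 Gy it fell to 17.0 ± 1.14 FPKM, 2.87-fold lower (log2 change -1.46, SE 0.10, limma adjusted p = 1.54e-07). Every library of these groups lay below every control library, as did 35.1% and 36.7% of all genes. At 12 h the means were 45.1 ± 1.62 and 41.2 ± 4.40 FPKM, with log2 differences of -0.11 (95% interval -0.33 to 0.12, adjusted p = 0.534) and -0.24 (-0.46 to -0.01, adjusted p = 0.146). The fibroblast marker sum was also lower at 24 h at both doses, mostly through its collagen genes and not through Pdgfra. The part of this sum in the Adm result was not tested.

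The receptor of adrenomedullin is Calcrl paired with Ramp2 or Ramp3. Of the 7 genes listed for the pathway 6 were tested, and the related peptide gene Adm2 was at 0 in all 15 libraries. At 24 h 1 gene was called higher and 2 lower at each dose, with a median log2 change of -0.48 (5 Gy) and -0.33 (20 Gy), and at 12 h Ramp3 was called lower after 5 Gy and Calcrl higher after 20 Gy, with medians of 0.05 and -0.07. Of all genes, 41.3% and 40.3% were called at 24 h and 9.94% and 8.54% at 12 h.

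Calcrl rose from 5.57 ± 0.741 FPKM to 10.5 ± 1.18 FPKM at 24 h after 5 Gy (limma adjusted p = 0.0162) and to 9.71 ± 4.07 FPKM after 20 Gy (limma adjusted p = 0.0456). Ramp2, which gives the receptor its preference for adrenomedullin, fell from 65.1 ± 2.77 FPKM to 35.8 ± 3.52 FPKM (limma adjusted p = 1.63e-06) and 28.5 ± 2.31 FPKM (limma adjusted p = 1.16e-07). It was already lower at 12 h, under the fold limit. Its 12 h means were 46.9 ± 1.36 FPKM after 5 Gy (-0.46, limma adjusted p = 0.00156) and 43.6 ± 1.91 FPKM after 20 Gy (-0.57, limma adjusted p = 0.000492). Ramp3 fell from 11.0 ± 4.68 FPKM to 2.94 ± 0.975 FPKM (limma adjusted p = 0.0105) and 2.63 ± 1.32 FPKM (limma adjusted p = 0.00596).

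The change from 12 h to 24 h was also compared within each dose, which leaves the control group aside. At 5 Gy 2 of the 6 genes were called, beside 36.4% of all genes, and at 20 Gy 3 were, beside 36.3%. Ptgs2 rose by 2.08 on the log2 scale after the lower dose (limma adjusted p = 7.22e-05) and by 2.58 after the higher one (limma adjusted p = 1.21e-05). Adm fell by 1.87 (limma adjusted p = 2.67e-08) and 1.23 (limma adjusted p = 8.59e-07), respectively. Both genes thus differed between the time points at each dose as well as from the control group at 24 h.

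Edn1 behaved less uniformly over time. At 5 Gy its 24 h libraries were all above the 12 h libraries, as those of 28.7% of all genes were, but the change of 0.39 did not pass (95% interval -0.13 to 0.91, limma adjusted p = 0.187). At 20 Gy the change of 0.73 passed (limma adjusted p = 0.0202) although the groups overlapped through 1 library, and it no longer passed without 20 Gy, 24 h replicate 1 (0.45, adjusted p = 0.0962) or 2 (0.64, adjusted p = 0.0653). Ptgs1 at 20 Gy had lower values at 24 h than at 12 h in every library, as 35.9% of all genes did, with a log2 difference of -0.79 that did not pass (95% interval -1.49 to -0.09, limma adjusted p = 0.0549). The value rests on single libraries: it was -0.41 (adjusted p = 0.255) without 20 Gy, 24 h replicate 1 and passed without replicate 2 (-1.01, adjusted p = 0.0286) or 3 (-0.95, adjusted p = 0.047). Ece1 and Ednra did not pass at either dose.

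The doses were compared at each time point. No gene of the set was called at 12 h, where 0.123% of all genes were, nor at 24 h, where 2.42% were. At 24 h Ptgs2 was 2.15 times as high after 20 Gy as after 5 Gy, with no overlap of the libraries, as for 6.78% of all genes, but the log2 difference of 1.02 (95% interval 0.37 to 1.67) did not pass (limma adjusted p = 0.0745). It did pass with the replicate number as a block (adjusted p = 0.0428) and in a fit of the 2 groups alone (adjusted p = 0.0436). For Adm the difference of 0.51 (95% interval 0.29 to 0.74) had an adjusted p of 0.0148 by limma but lay under the fold change of 1.5. The annotated Adm transcript alone overlapped between the doses and gave 0.55 (limma on transcripts, adjusted p = 0.451). It carried 55.4% of the Adm signal in 5 Gy, 24 h replicate 1 and 61.4% in 20 Gy, 24 h replicate 3. Edn1 differed by 0.26 (95% interval -0.25 to 0.78, limma adjusted p = 0.604). Without 20 Gy, 24 h replicate 3 the Edn1 difference was 0.62 (limma adjusted p = 0.0301). Without replicate 1 of that group it was -0.01 (limma adjusted p = 0.991), so this comparison depends on single libraries in both directions. The difference between the doses in the change over time had an adjusted p under 0.05, the threshold used here without a fold limit, for none of the 6 genes, beside 0.553% of all genes, and was largest for Adm (0.64, limma adjusted p = 0.0707).

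As a constrictor and a dilator peptide, Edn1 and Adm were also set side by side within each library. Edn1 was 0.0594 to 0.0677 of Adm per length of transcript in the control group and 0.128 to 0.17 in the 12 h groups. It was 0.719, 0.785 and 0.809 at 24 h after 5 Gy, and 0.343, 0.74 and 1.03 at 24 h after 20 Gy. The ratio separated the control, 12 h and 24 h libraries without overlap, which follows from the levels above, and it was not tested.

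**Figure D4:**
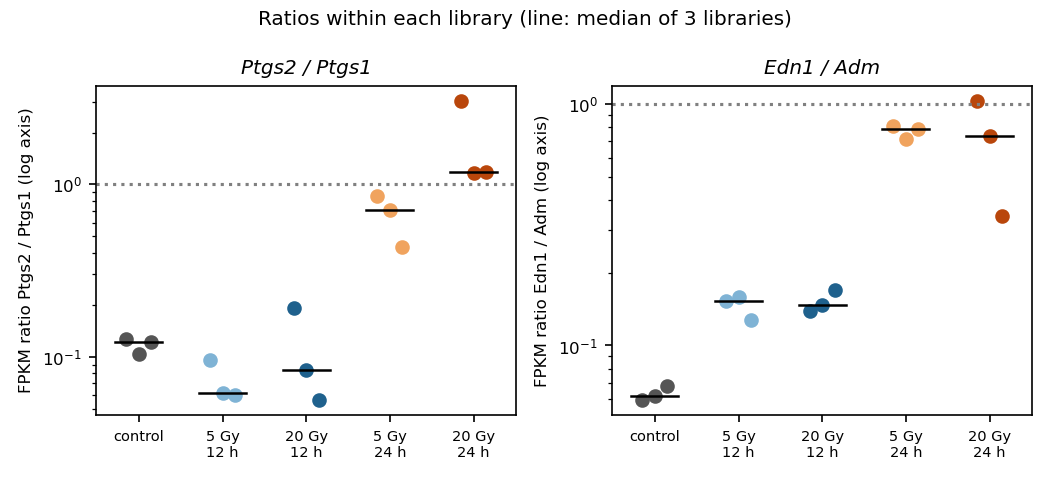
Ratio of Ptgs2 to Ptgs1 (left) and of Edn1 to Adm (right) in FPKM, on log axes, in each of the 3 libraries (points) of the 5 groups (horizontal axis), with the group median as a line and a ratio of 1 dotted. Ptgs2 exceeds Ptgs1 only in the 3 libraries at 24 h after 20 Gy, and Edn1 exceeds Adm in 1 of them.

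Across the 15 libraries, Pearson r of log2(FPKM + 1) was -0.815 between Ptgs2 and Adm, 0.665 between Edn1 and Ptgs2 and -0.696 between Edn1 and Adm, which describes groups that differ in all 3 genes and carries no test. Among 9554 genes with a mean of at least 5 FPKM, those most like Edn1 were Pik3c3 (0.936), Smarcad1 (0.934) and Klhl7 (0.933). Those most like Adm were Uqcrfs1 (0.993), Srp9 (0.991) and Mrps12 (0.991), and Uap1 (0.983) was most like Ptgs2, followed by the unnamed MSTRG.18705 (0.968) and LOC103692716 (0.965). For Ptgs1 they were Gpnmb (0.971), Pdia6 (0.967) and Tnfrsf11b (0.966). Matches were weaker for Ece1, with Ralb (0.901), MSTRG.12004 (0.882) and Cnrip1 (0.848), and for Ednra, with Ascc1 (0.749), AABR07066020.1 (0.7) and Ift27 (0.694). All these values share the same 15 libraries and the same differences between groups.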

How the data were processed

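Poly-A RNA from 15 cultures was sequenced in reads of 150 bases. The authors trimmed the reads (Trimmomatic), mapped them to Rnor_6.0 with HISAT2 2.0.13 and assembled transcripts with StringTie. They deposited 1 table of FPKM for 85322 transcripts, with no counts. FPKM were summed per gene, leaving 4738 transcripts of joint or unclear loci unassigned, and log2(FPKM + 1) was computed from the deposited values. Aligned bases per library were estimated from the steps of low single-exon values, of which 75.3% to 82.8% were whole multiples within 0.1, against at most 20.4% at other steps.

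Genes with a mean of at least 0.5 FPKM (17895) were fitted with limma 3.58.1 in R 4.3.3, with 1 mean per group over 5 groups, a trend on the mean and two-sided tests. Because a pseudocount of 1 is added, fold changes of low genes are understated. The fit was tested on simulated data. Thresholds are those of the study, and a linear model on a log scale was used because counts are not part of the table. The genes of the set, the pathway and marker lists and the tests were chosen with earlier results of these data known. The genes named are the whole set, list genes called in the same direction in both 24 h comparisons with the control group, and the 3 genes most like each member. Where a list gene outside that rule is named, it was chosen after its values were seen. Promoter sequences are those of RefSeq (GRCr8), which matched all 7 measured genes, and coordinates of genes are those of the deposited table. Alternatives were another pseudocount, filter, scaling, prior, fold limit or block, fits of 2 groups, single transcripts and leaving out each library. No explanation was tested.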

Additional observations from a re-analysis of the deposited data

How the results depend on the processing

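The calls of Edn1, Ptgs2 and Adm at 24 h against the control group held under all 17 alternatives each. The 12 h calls of Edn1 did not. The count of genes called, 1 in the main setting, became 0 at either dose with a fold change limit of 2, with named rows only and with the highest transcript only, and after 20 Gy also with no filter on low values (adjusted p = 0.0761), and leaving out 1 library gave counts from 0 to 1. The change of Edn1 from 12 h to 24 h at 20 Gy was lost with a fold change limit of 2, with no filter (adjusted p = 0.0512), in a fit of the 2 groups alone (0.0884), with named rows only (0.58, adjusted p = 0.21) and with the highest transcript only (0.58, adjusted p = 0.272). Ece1 at 24 h after 20 Gy was uncalled in the main setting. It was called lower with named rows only (-1.40, limma adjusted p = 0.0246) and with the highest transcript only (-1.63, limma adjusted p = 0.0254).

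Replicate numbers did not pair the libraries: deviations of same-numbered libraries correlated from -0.177 to 0.232 over 30 pairs, and 4 of 15 libraries correlated best with their own number. With the replicate block, 1 gene was called between the doses at 24 h in place of 0, Ptgs2 (1.02, adjusted p = 0.0428), and no other call of the set changed. A fit of the 2 groups alone also called 1, Ptgs2 (adjusted p = 0.0436), quantile normalization called 1, Adm (0.59, adjusted p = 0.00506), and leaving out 1 library gave 0 to 1. For the change over time between doses, the count went from 0 to 1, Adm, under quantile normalization (0.71, adjusted p = 0.0385) and TPM (0.59, adjusted p = 0.0487). With the highest transcript only, Adm moved the other way, to a limma adjusted p of 0.451 between doses at 24 h and 0.654 for the change over time. Quantile normalization moved the median of all genes at 24 h after 20 Gy from -0.14 to -0.03.

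Values that changed sign were all uncalled. With named rows only and with the highest transcript, respectively, they were Adm at 12 h after 5 Gy (0.074 in both), Ptgs1 at 12 h after 5 Gy (1.86 in both), Ece1 at 24 h after 5 Gy (0.16 and 0.17, and 0.071 with TPM), Ece1 and Ptgs1 between doses at 12 h (-0.15 and -0.14, and -0.63 in both) and Ptgs1 for the change over time between doses (0.28 in both). Ptgs2 at 12 h after 20 Gy became -0.038 with a pseudocount of 0.1 and -0.0023 under quantile normalization, and Ednra at 24 h after 20 Gy -0.0044 and -0.0089. Counting the unnamed transcripts inside Ednra, an alternative chosen after seeing the data, gave 0.0074 between doses at 24 h and a call from 12 h to 24 h at 20 Gy (0.70, adjusted p = 0.0498).

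Leaving out 1 library gave these ranges where the sign changed. Against the control group they were -0.17 to 0.012 for Adm, -0.47 to 0.19 for Ednra and -0.47 to 0.15 for Ptgs1 at 12 h after 5 Gy, -0.37 to 0.32 for Ptgs2 at 12 h after 20 Gy, and -0.21 to 0.33 for Ednra at 24 h after 20 Gy. From 12 h to 24 h they were -0.54 to 0.072 for Ptgs1 at 5 Gy and -0.21 to 0.057 for Ece1 at 20 Gy. Between doses they were -0.66 to 0.0043 for Ednra at 12 h, and at 24 h -0.25 to 0.019 for Ece1, -0.01 to 0.62 for Edn1, -0.44 to 0.11 for Ednra and -0.41 to 0.19 for Ptgs1. For the change over time between doses Ednra ranged from -0.23 to 0.45. The cause of these differences was not tested, and the other pathway genes were fitted in the main setting only.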

Other observations

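Of 10 genes listed for nitric oxide and cyclic GMP, 8 had rows and 4 were tested. Endothelial nitric oxide synthase, Nos3, stayed at or under 0.0397 FPKM and was at 0 in 7 of 15 libraries. Ddah1, which degrades an inhibitor of nitric oxide synthases, fell from 4.13 ± 0.603 FPKM to 1.92 ± 0.282 FPKM at 24 h after 5 Gy (limma adjusted p = 0.00435) and 2.39 ± 0.383 FPKM after 20 Gy (limma adjusted p = 0.0237). At 12 h 1 gene was called lower after 5 Gy and none after 20 Gy, and at 24 h 1 and 2 genes were, with none called higher, beside 9.94%, 8.54%, 41.3% and 40.3% of all genes called in these comparisons, and the median log2 changes were 0.00, -0.07, -0.36 and -0.54.

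Of 14 genes listed for angiotensin, kinin and natriuretic peptides, all had rows and 6 were tested. At 12 h 1 gene was called higher after 5 Gy and 3 after 20 Gy with none lower, and at 24 h none was higher and 1 and 2 were lower, with median log2 changes of 0.36, 0.50, -0.32 and -0.51. The shares of all genes called were again 9.94%, 8.54%, 41.3% and 40.3%. Agt, angiotensinogen, fell from 1.08 ± 0.0753 FPKM to 0.332 ± 0.146 FPKM at 24 h after 5 Gy (limma adjusted p = 0.00054) and 0.217 ± 0.106 FPKM after 20 Gy (limma adjusted p = 0.000139). The constrictor receptor Agtr1a, named after its values were seen, was at 141 ± 11.8 FPKM in the control group and 224 ± 11.8 FPKM at 12 h after 20 Gy (log2 change 0.67, limma adjusted p = 0.0178). At 24 h it was at 103 ± 5.22 FPKM after 5 Gy (-0.45, limma adjusted p = 0.0361) and 97.8 ± 24.5 FPKM after 20 Gy (-0.55, limma adjusted p = 0.0136), both under the fold limit, and it was called lower at 24 h than at 12 h at both doses.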
